A study of Mus musculus with 4 samples.

Results

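Genes of the germ line were followed in mouse embryonic stem cells that lack Prdm14, a PR domain zinc finger protein needed to specify primordial germ cells. The list held 32 genes chosen by symbol. Of these, 4 were regulators of primordial germ cells and 28 were genes of piRNA production, meiosis or other germ cell functions, many of which are known for promoters methylated in somatic cells. A probe set annotated to 1 gene was found for 30 of the 32, out of 22180 genes named on the array, and each of the 30 had 1 probe set. Fkbp6 had none, and Sycp3 shared its probe set with Chpt1, so no value is given for either. All 4 groups shared the Prdm14 knockout and were kept in 2i with LIF, the cytokine that sustains these cells, over a layer of STO feeder fibroblasts. Each group was 1 array of strip 2. The cells expressed PRDM14 and CBFA2T of the sea urchin, PRDM14 of the sea urchin alone, PRDM14 of the mouse, or an empty vector. The labels give no clone number, promoter or expression level of the introduced genes.

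Primordial germ cells arise from the epiblast under a small set of transcription factors, PRDM1, PRDM14 and TFAP2C, and are then kept alive by RNA-binding proteins and by the KIT receptor. Many genes used later, in meiosis and in the piRNA pathway that silences transposons, are held off in other cells by methylation of CpG-rich promoters and by a Polycomb complex with MGA, MAX and E2F6. CBFA2T proteins are co-repressors, and the mouse member CBFA2T2 binds PRDM14. In embryonic stem cells the 2i medium is known to lower DNA methylation across the genome. No methylation was measured here.

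The promoters of the listed genes are described first, because CpG density and the MGA and MAX motif are what these genes are known for. RefSeq promoter windows of GRCm38.p6, running from 250 bases before to 50 after the start of transcription, were found for 28 of the 32 genes, the 5′-most window being used where a gene had several. The 26 windows of piRNA, meiosis and other germline genes held between 10 and 48 CpG dinucleotides, with a median of 21, against a median of 13 over 17491 protein-coding genes with a window. The ratio of observed to expected CpG reached 0.6 in 21 of the 26 (80.8%), against 48.4% of the protein-coding genes. Nanos3 was the poorest in CpG of all 28, with 3. The palindromic motif CACGTG, which MAX dimers bind, was present in 14 of the 26 windows (53.8%) and in 7.9% of protein-coding windows. The motif GCGGGA, part of E2F sites, was present on either strand in 12 of the 26 (46.2%), against 25.8%. Both motifs contain CG, and the windows compared were not matched for CpG content. The windows of Tex14 and Rad51c overlap and hold the same GCGGGA site, which is counted for both. These matches describe letters in a fixed window and say nothing of binding in these cells.

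The windows printed here are those of Dazl, which had the largest difference between arrays of all listed genes and was chosen for that after its values were seen, of Tdrd5 and Ddx4, the most CpG-rich among the dim genes, and of Tex14, Stra8 and Kit, which were among the brighter genes with the largest spread. All are given 5′ to 3′ on the strand of the gene, with each CG dinucleotide in capitals. Their positions in GRCm38.p6 are chr17:50293571-50293870 on the minus strand for Dazl, chr1:156303299-156303598 on the minus strand for Tdrd5, chr13:112652261-112652560 on the minus strand for Ddx4, chr11:87404815-87405114 on the plus strand for Tex14, chr6:34920698-34920997 on the plus strand for Stra8 and chr5:75574737-75575036 on the plus strand for Kit.
Dazl: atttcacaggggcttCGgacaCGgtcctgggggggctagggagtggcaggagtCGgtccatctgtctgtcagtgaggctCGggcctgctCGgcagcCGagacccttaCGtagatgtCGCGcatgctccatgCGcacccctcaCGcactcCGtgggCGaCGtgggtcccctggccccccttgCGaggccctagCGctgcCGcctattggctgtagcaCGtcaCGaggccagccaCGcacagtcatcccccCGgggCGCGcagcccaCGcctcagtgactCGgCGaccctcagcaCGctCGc
Tdrd5: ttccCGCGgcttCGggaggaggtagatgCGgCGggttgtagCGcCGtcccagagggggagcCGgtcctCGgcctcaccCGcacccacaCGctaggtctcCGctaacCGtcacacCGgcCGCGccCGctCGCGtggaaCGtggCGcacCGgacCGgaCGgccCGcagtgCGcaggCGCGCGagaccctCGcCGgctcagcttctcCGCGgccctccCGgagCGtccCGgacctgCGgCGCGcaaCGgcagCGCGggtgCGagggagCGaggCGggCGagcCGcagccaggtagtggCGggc
Ddx4: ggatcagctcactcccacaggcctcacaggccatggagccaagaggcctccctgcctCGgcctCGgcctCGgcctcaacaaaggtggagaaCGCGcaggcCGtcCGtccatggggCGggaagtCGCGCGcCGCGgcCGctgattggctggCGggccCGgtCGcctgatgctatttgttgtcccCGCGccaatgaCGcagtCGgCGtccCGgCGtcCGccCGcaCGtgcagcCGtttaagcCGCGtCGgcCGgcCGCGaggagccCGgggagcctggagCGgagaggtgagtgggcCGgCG
Tex14: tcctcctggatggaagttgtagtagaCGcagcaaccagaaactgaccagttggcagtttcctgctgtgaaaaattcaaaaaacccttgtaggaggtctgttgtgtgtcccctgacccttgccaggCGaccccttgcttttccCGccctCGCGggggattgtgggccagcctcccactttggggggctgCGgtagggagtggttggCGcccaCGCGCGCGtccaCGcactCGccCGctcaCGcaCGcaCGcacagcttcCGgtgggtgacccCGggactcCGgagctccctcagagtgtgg
Stra8: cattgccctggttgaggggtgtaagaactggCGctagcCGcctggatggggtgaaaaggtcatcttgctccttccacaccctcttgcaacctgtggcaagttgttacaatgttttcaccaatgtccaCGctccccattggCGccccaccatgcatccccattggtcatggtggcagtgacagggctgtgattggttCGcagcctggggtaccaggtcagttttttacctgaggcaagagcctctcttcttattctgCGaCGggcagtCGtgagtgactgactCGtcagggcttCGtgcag
Kit: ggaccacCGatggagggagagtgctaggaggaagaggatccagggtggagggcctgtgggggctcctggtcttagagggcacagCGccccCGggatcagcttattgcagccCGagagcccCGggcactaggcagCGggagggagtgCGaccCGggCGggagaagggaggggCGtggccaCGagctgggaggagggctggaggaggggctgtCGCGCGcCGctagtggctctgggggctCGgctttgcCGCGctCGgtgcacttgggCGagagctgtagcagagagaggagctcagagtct
The Tdrd5 window held 48 CpG, that of Ddx4 38, that of Dazl 28, those of Tex14 and Kit 20 each, and that of Stra8 10. Ddx4 had 1 CACGTG and Dazl had none. The windows of Tex14 and Rad51c lie on opposite strands of chromosome 11 and overlap by 210 bases, with start sites 111 bases apart, so the Tex14 sequence also shows most of the Rad51c window on its other strand.

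**Figure D1:**
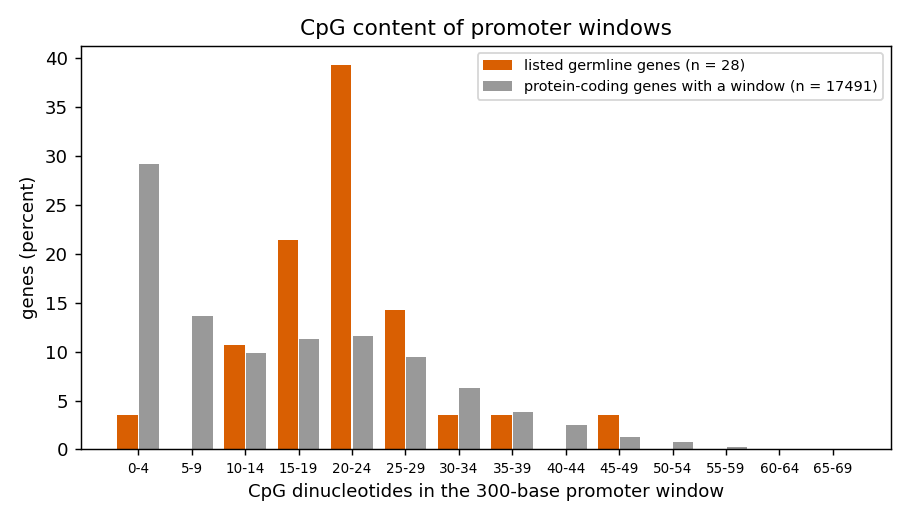
Number of CpG dinucleotides in the 300-base promoter window (x axis, bins of 5) against the percent of genes in each bin (y axis), for the 28 listed genes with a window and for 17491 protein-coding genes. The fullest bin of the listed genes is 20 to 24 CpG, with 11 of 28 genes, while 29.14% of protein-coding genes have 0 to 4.

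The values are RMA intensities on a log2 scale, made comparable between arrays by the authors, and the levels of different probe sets cannot be ranked against each other. The probe set of the knocked-out gene, Prdm14, read 5.53 for the label sea urchin PRDM14 and CBFA2T, 5.77 for sea urchin PRDM14, 5.57 for mouse PRDM14 and 5.71 for empty vector. It did not separate the groups and gives no check of the labels, and a group name below means the array that bears it. The 8 measured embryonic stem cell markers, among them Pou5f1, Sox2 and Nanog, all passed the filter value of 4.84 described next. So did 13 of 19 fibroblast markers, which feeder cells would bring, although Dcn and Lum stayed below it on all 4 arrays. The mean of the 19 fibroblast markers lay between 5.40 and 5.42 on the 4 arrays, but single markers moved more. Fn1, the fibronectin gene and the one fibroblast marker past 1.5-fold in any comparison, read 7.30 with sea urchin PRDM14 and CBFA2T, 7.86 with sea urchin PRDM14, 8.095 with mouse PRDM14 and 7.79 with the empty vector. Of the stem cell markers, the one past 1.5-fold was Tfcp2l1, a naive pluripotency factor, which read 7.21 with sea urchin PRDM14 and CBFA2T, 6.93 with sea urchin PRDM14, 7.605 with mouse PRDM14 and 7.35 with the empty vector. In bulk RNA, fewer cells of a type and less RNA per cell cannot be told apart.

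A gene was called dim when its highest value over the 4 arrays stayed below 4.84, the median over all probe sets annotated to 1 gene. By this mark 21 of the 30 measured genes were dim and 9 were not. The 9 were Tfap2c, Dnd1 and Kit of the specification genes, Piwil2 of the piRNA pathway, Rad51c, Dmc1 and Stra8 of meiosis, and Tex101 and Tex14. Of these, 8 reached the mark on all 4 arrays, and Dnd1 missed it on the sea urchin PRDM14 array only. The mark is no detection call, since 7 of 12 measured genes of spermatids and oocytes, such as Prm1, Tnp1 and Gdf9, reached it too. The oocyte gene Zp3, 1 of the 7, reached it on the sea urchin PRDM14 array only. It was the 1 of the 12 past 1.5-fold in any comparison. Zp3 read 4.823 with sea urchin PRDM14 and CBFA2T, 4.866 with sea urchin PRDM14, 4.219 with mouse PRDM14 and 4.296 with the empty vector. None of the 5 germline genes that reached the mark and had a promoter window held CACGTG, against 12 of the 19 dim ones. GCGGGA went the other way, in 3 of the 5 and 8 of the 19. The 5 include Tex14 and Rad51c, whose windows overlap, and a link between motif and level was not tested.

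Most listed genes were nearly level across the 4 arrays, as were most named genes. The range of a gene over the arrays had a median of 0.21 on the log2 scale over the 30 genes, beside 0.19 over all 22180 named genes. Of the 180 differences between arrays, 30 genes in 6 comparisons, 171 were smaller than 0.3. This was ordinary on these arrays. The central 95% of all named genes was narrowest between the 2 sea urchin arrays, from -0.287 to 0.291. It was widest for sea urchin PRDM14 and CBFA2T against the empty vector, from -0.308 to 0.337. Brdt, a testis bromodomain protein gene, varied least, with a range of 0.03, and Dazl varied most, with 0.70. Since every group is a single array, the values below carry no error from replicates and no test was made, and precision is limited by the number of arrays.

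**Figure D2:**
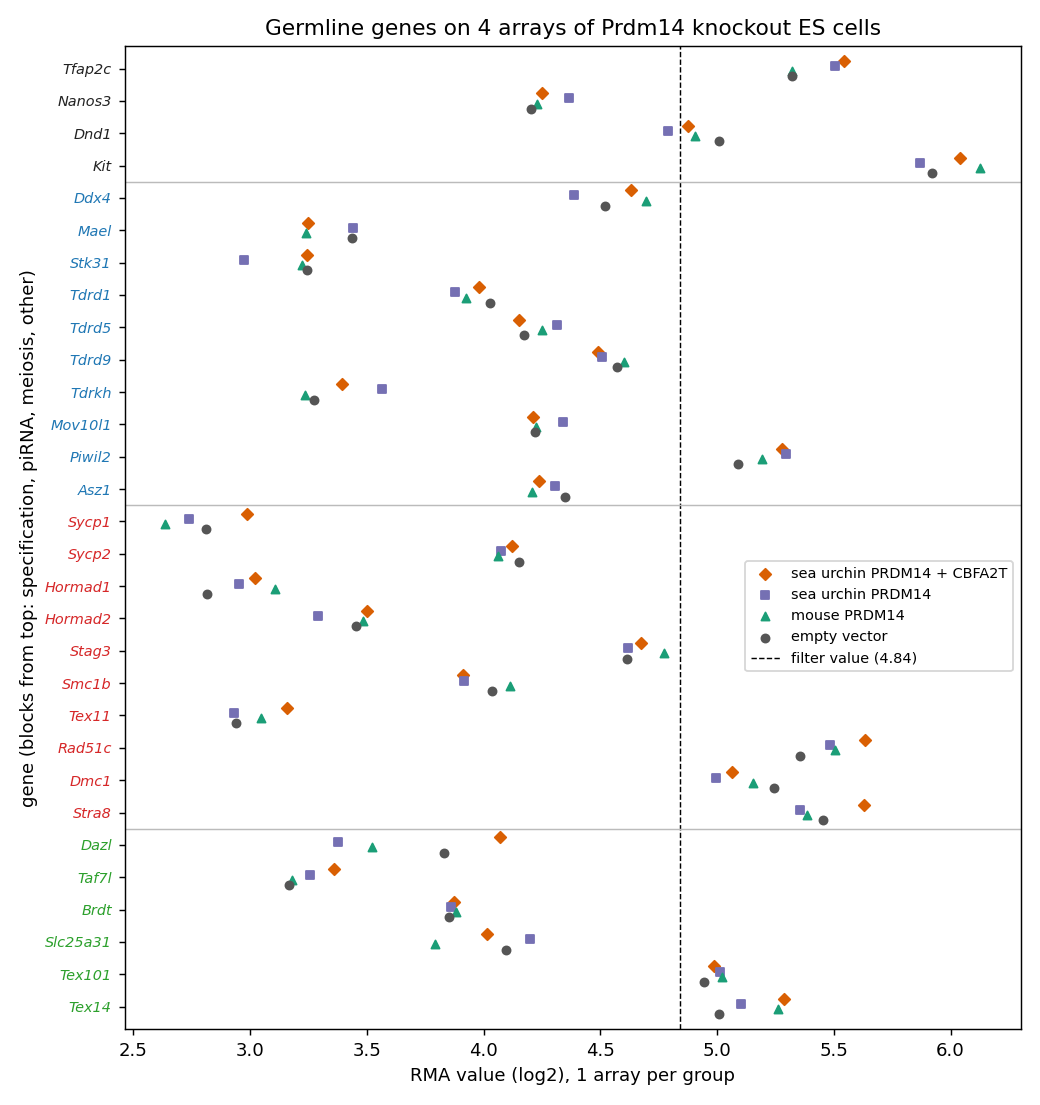
RMA value (log2, x axis) of each measured gene (y axis, in blocks from top to bottom: specification, piRNA pathway, meiosis, other germline) on the 4 arrays, 1 symbol per array, with the filter value of 4.84 as a dashed line. The symbols of a gene lie close together except for Dazl, and 21 of the 30 genes lie wholly left of the line.

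Among the specification genes, Tfap2c, the AP-2 gamma transcription factor of germ cell specification, had a value of 5.54 with sea urchin PRDM14 and CBFA2T, 5.51 with sea urchin PRDM14, 5.32 with mouse PRDM14 and 5.32 with the empty vector. Both sea urchin arrays thus read above the other 2, by 0.22 and 0.19 against the empty vector. By absolute size these 2 differences ranked only 3047 and 3999 among 22180 genes. Kit, the receptor tyrosine kinase for stem cell factor, read 6.04 with sea urchin PRDM14 and CBFA2T, 5.87 with sea urchin PRDM14, 6.13 with mouse PRDM14 and 5.92 with the empty vector. Its order differed from that of Tfap2c, with mouse PRDM14 highest and sea urchin PRDM14 lowest. Dnd1, an RNA-binding protein that keeps primordial germ cells alive, read 4.87 with sea urchin PRDM14 and CBFA2T, 4.79 with sea urchin PRDM14, 4.91 with mouse PRDM14 and 5.01 with the empty vector, which was its highest array. Nanos3, another RNA-binding protein of germ cell survival, was dim, between 4.20 and 4.37. The 4 genes were each highest on a different array.

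In the piRNA pathway, only Piwil2, the Argonaute-family protein MILI that carries piRNAs in fetal germ cells, was not dim. It read 5.28 with sea urchin PRDM14 and CBFA2T, 5.30 with sea urchin PRDM14, 5.19 with mouse PRDM14 and 5.09 with the empty vector. The empty vector array was thus its lowest, by 0.19, 0.21 and 0.10. The helicase genes Ddx4, Mov10l1 and Tdrd9, the Tudor domain genes Tdrd1, Tdrd5, Tdrkh and Stk31, and Mael and Asz1, which act in piRNA processing and transposon silencing, were dim and lay between 2.97 and 4.69. Their ranges over the arrays ran from 0.11 for Tdrd9 to 0.33 for Tdrkh. Of the 10 measured piRNA genes, 5 were highest on the sea urchin PRDM14 array, beside 23.9% of all named genes. All of these except Piwil2 were dim. Most of the 20 further piRNA genes, described at the end, were highest on another array, as were most of all named genes. Whether piRNA genes as a whole tend to read highest on the sea urchin PRDM14 array was not tested.

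Of the meiosis genes, Stra8, the retinoic acid target that starts meiosis, read 5.63 with sea urchin PRDM14 and CBFA2T, 5.36 with sea urchin PRDM14, 5.38 with mouse PRDM14 and 5.46 with the empty vector. The array with CBFA2T read highest and the other 3 lay within 0.10 of each other. Dmc1, the meiotic strand exchange protein, read 5.07 with sea urchin PRDM14 and CBFA2T, 4.997 with sea urchin PRDM14, 5.16 with mouse PRDM14 and 5.24 with the empty vector, which was its highest array. Rad51c, a recombination gene that also serves DNA repair in somatic cells, read 5.63 with sea urchin PRDM14 and CBFA2T, 5.49 with sea urchin PRDM14, 5.51 with mouse PRDM14 and 5.36 with the empty vector. The empty vector array was its lowest. The synaptonemal complex genes Sycp1 and Sycp2, the axis genes Hormad1 and Hormad2, the meiotic cohesin genes Stag3 and Smc1b, and the crossover gene Tex11 were dim, between 2.64 and 4.77. Sycp1 had the largest range among them, 0.35, and Sycp2 the smallest, 0.09. On the sea urchin PRDM14 array, all 10 measured meiosis genes read below their own mean over the 4 arrays, as did 50.4% of all named genes, and none of the 10 was highest there. Of 31 further meiosis genes, described at the end, 10 read below their own mean on this array, so the low readings do not describe meiosis genes as a whole.

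Tex14, which encodes a protein of the bridges between germ cells and starts beside Rad51c, read 5.29 with sea urchin PRDM14 and CBFA2T, 5.10 with sea urchin PRDM14, 5.26 with mouse PRDM14 and 5.01 with the empty vector. Like Rad51c, it was highest on the array with CBFA2T and lowest on the empty vector array. Of all named genes, 25.8% were highest on the array with CBFA2T. Whether the overlapping promoter windows of Tex14 and Rad51c bear on their values was not tested. Tex101, a germ cell surface glycoprotein gene, stayed between 4.95 and 5.02. Taf7l, a germ cell paralog of a TFIID subunit, Brdt and Slc25a31, a testis ADP/ATP carrier, were dim, between 3.17 and 4.20. Slc25a31 had a range of 0.41, highest with sea urchin PRDM14 and lowest with mouse PRDM14.

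**Figure D3:**
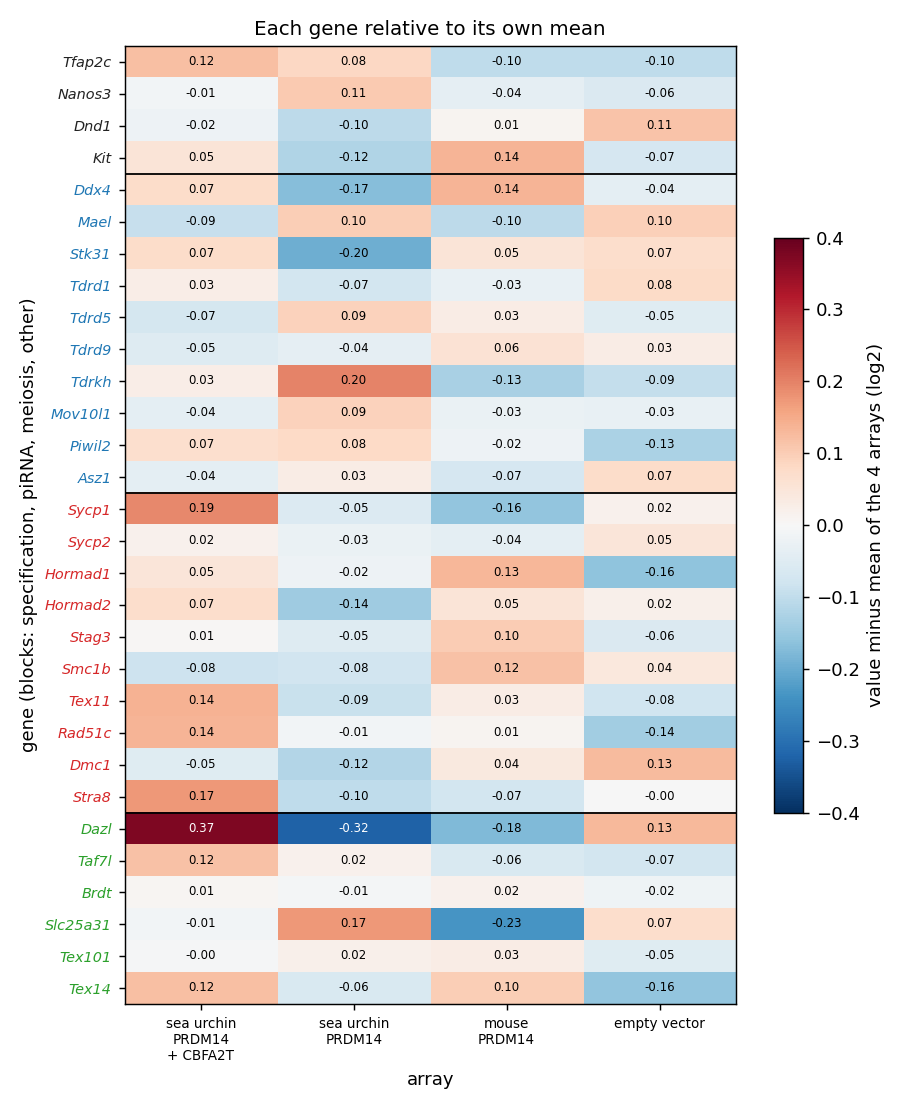
Value of each measured gene minus its own mean over the 4 arrays (log2, colour and printed number), with genes down the page and arrays across. Dazl carries the darkest cells, 0.37 with sea urchin PRDM14 and CBFA2T and -0.32 with sea urchin PRDM14, and all 10 meiosis genes are below 0 with sea urchin PRDM14, as were 10 of 31 further meiosis genes not drawn.

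Dazl, an RNA-binding protein gene that germ cells need for their development into gametes, gave the largest single difference. It read 4.07 with sea urchin PRDM14 and CBFA2T, 3.37 with sea urchin PRDM14, 3.52 with mouse PRDM14 and 3.83 with the empty vector, below the mark of 4.84 on all 4 arrays. The array with CBFA2T was the highest and the empty vector array came next. Between the 2 sea urchin arrays the difference was 0.70, or 1.62-fold, and it ranked 50 among 22180 genes by absolute size. Among the 10138 dim genes, 9, Dazl included, differed by at least as much in this comparison. Against the empty vector Dazl differed by 0.24 on the array with CBFA2T, by -0.45 with sea urchin PRDM14 and by -0.31 with mouse PRDM14.

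The first comparison asks whether mouse PRDM14 moves germline genes in cells without it. With mouse PRDM14, 0 of the 9 genes past the mark differed 2-fold from the empty vector, beside 0.0830% of all genes past it. Over all 30 measured genes, 0 were 2-fold apart (0.0451% of all named genes) and 0 were 1.5-fold apart (0.316%). The differences of the 30 ran from -0.31 in Dazl to 0.29 in Hormad1, with 18 above 0 and a median of 0.02, beside -0.003 over all named genes. Tex14 (0.26), Kit (0.20) and Rad51c (0.15) were the largest positive ones among the 9, and Dnd1 (-0.10) the largest negative.

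Sea urchin PRDM14 alone, set against the empty vector to ask whether a distant ortholog can act in the mouse background, gave 0 of 9 genes at 2-fold (0.0332% of genes past the mark). Without the filter the count was 0 of 30 at 2-fold (0.0180%) and 0 of 30 at 1.5-fold (0.374%). The 30 split evenly, 15 above 0 and 15 below, around a median of -0.002, which was -0.001 over all named genes. Dazl differed by -0.45, Tdrkh by 0.29, Stk31 by -0.27 and Dmc1 by -0.25. Of the 10 meiosis genes 7 were below 0, as were 11 of the 31 further ones.

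Sea urchin PRDM14 with CBFA2T against the empty vector gave 0 of 9 at 2-fold (0.208%), and 0 of 30 at 2-fold (0.122%) or at 1.5-fold (0.555%) without the filter. This comparison had 19 of 30 genes above 0 and a median of 0.05, beside 0.000 over all named genes. Tex14 (0.28), Rad51c (0.28), Dazl (0.24), Tfap2c (0.22) and Tex11 (0.22) were the largest, and Mael (-0.19) the most negative. The difference of Tex14 was the largest of the 30, at 1.21-fold.

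The arrays with and without added CBFA2T are the 2 sea urchin arrays. With 1 array each, an effect of CBFA2T and a difference between single arrays cannot be told apart. At 2-fold there were 0 of 9 genes (0.183%) and, without the filter, 0 of 30 (0.108%). At 1.5-fold without the filter there was 1 of 30, Dazl, beside 0.352% of all named genes. Against the empty vector, Dazl differed by 0.24 on the array with CBFA2T and by -0.45 on the sea urchin PRDM14 array. Dazl apart, the differences between the 2 sea urchin arrays lay between -0.19 in Mael and 0.27 in Stra8. The median over the 30 was 0.06, with 19 above 0, beside 0.002 and 50.6% over all named genes. Of the 10 meiosis genes 9 were above 0, with a median of 0.11, and of the 10 piRNA genes 3 were, with a median of -0.04. The further genes of both lists did not show these signs: 12 of 31 meiosis genes were above 0, with a median of -0.04, and 11 of 20 piRNA genes, with a median of 0.01. The 2-cell stage markers were also higher on the array with CBFA2T: 7 of the 11 measured were past 1.5-fold here and none was lower past it, and their mean was 5.87 against 4.37 with sea urchin PRDM14, 4.44 with mouse PRDM14 and 4.38 with the empty vector. Their part in the Dazl value was not tested.

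Against mouse PRDM14, sea urchin PRDM14 gave 0 of 9 at 2-fold (0.0581%), 0 of 30 at 2-fold (0.0361%) and 0 of 30 at 1.5-fold (0.365%) without the filter. Slc25a31 differed by 0.41, Tdrkh by 0.33, Ddx4 by -0.31 and Kit by -0.26, and 12 of the 30 were above 0. Of the 10 meiosis genes 8 were below 0, with a median of -0.14, whereas 14 of the 31 further ones were, with a median of 0.035. Sea urchin PRDM14 with CBFA2T against mouse PRDM14 gave 0 of 9 at 2-fold (0.183%), 0 of 30 at 2-fold (0.113%) and 0 of 30 at 1.5-fold (0.500%). Dazl (0.55) and Sycp1 (0.35) were the largest differences there, and 18 of 30 were above 0. The 6 comparisons share arrays, so a high or low value on 1 array enters 3 of them.

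**Figure D4:**
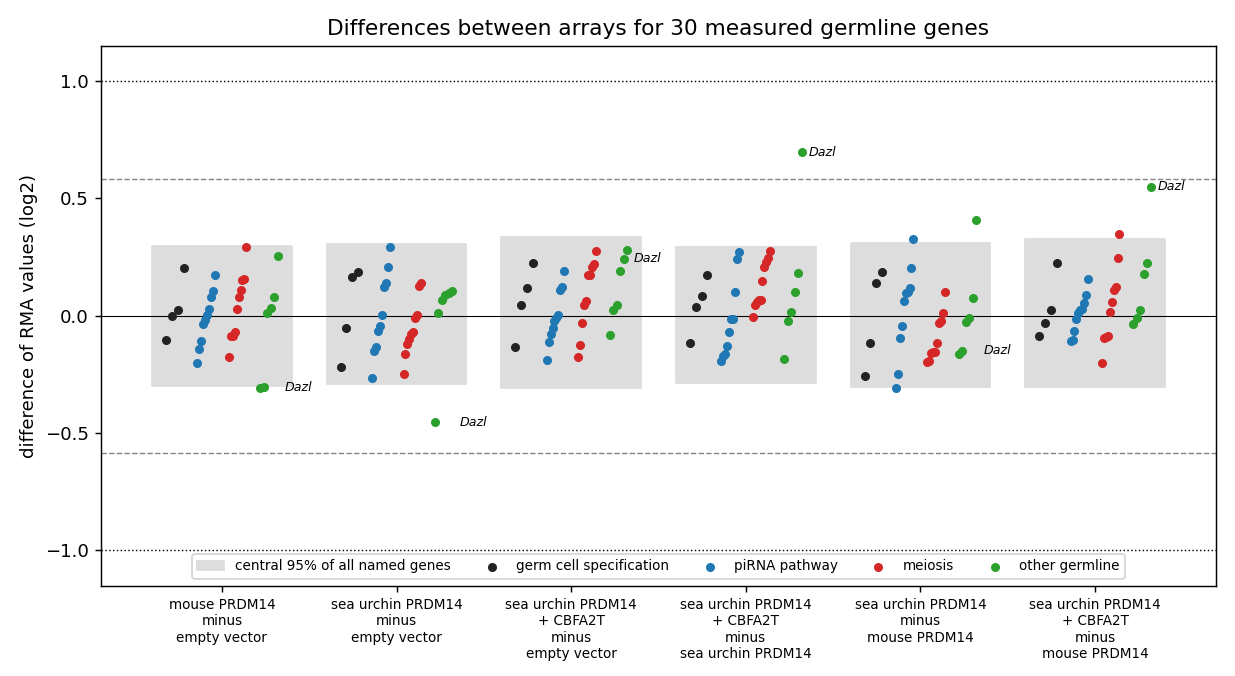
Difference of RMA values (log2, y axis) for the 30 measured genes in the 6 comparisons (x axis), coloured by role, with the central 95% of all named genes as a grey band, 1.5-fold as dashed and 2-fold as dotted lines. Dazl at 0.70 between the 2 sea urchin arrays is the only point past 1.5-fold and no point is past 2-fold.

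Of 18 further genes of primordial germ cells, Prdm14 among them, 1 was past 1.5-fold in any comparison, Dppa2, a chromatin factor of pluripotent and germ cells, which read 9.02 with sea urchin PRDM14 and CBFA2T, 7.66 with sea urchin PRDM14, 7.55 with mouse PRDM14 and 7.62 with the empty vector. Dppa3, a maternal factor also high in germ cells, lay between 6.09 and 6.48, and Prdm1, the partner of PRDM14 in specification, between 5.52 and 5.72. None of 20 further piRNA genes was past 1.5-fold, the largest difference being that of the piRNA-trimming exonuclease gene Pnldc1, -0.58 with mouse PRDM14 against the empty vector. None of 31 further meiosis genes was either, the largest being -0.51 in Mnd1, a partner of Dmc1, with sea urchin PRDM14 and CBFA2T against the empty vector. Dppa3 and Prdm1 were picked with their values in view. In single comparisons, between 0.316% and 0.555% of all named genes were past 1.5-fold. The share past it in any of the 6 comparisons was not computed. The counts in any comparison, here and for the other gene lists, therefore have no matching share beside them.

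Of 15 genes of the Polycomb complex with MGA and E2F6, which represses germline genes, 1 was past 1.5-fold in any comparison. It was the RYBP paralog gene Yaf2, with a difference of -0.59 with mouse PRDM14 against the empty vector. Mga, the complex's scaffold, read 5.21 with sea urchin PRDM14 and CBFA2T, 5.33 with sea urchin PRDM14, 5.29 with mouse PRDM14 and 5.17 with the empty vector, and was chosen after its values were seen. Of 15 measured genes of DNA methylation and heterochromatin, 1 was past 1.5-fold in any comparison. This was the de novo methyltransferase gene Dnmt3b, at 6.34 with sea urchin PRDM14 and CBFA2T, 6.56 with sea urchin PRDM14, 5.96 with mouse PRDM14 and 6.42 with the empty vector. It was lowest with mouse PRDM14, and passed 1.5-fold only between sea urchin PRDM14 and mouse PRDM14 (0.595). In that comparison the 26 measured piRNA, meiosis and other germline genes had a median of -0.027, with 10 of them above 0. For mouse PRDM14 against the empty vector, Dnmt3b differed by -0.456, and the median of the 26 was 0.02, with 15 above 0. Whether the values of Dnmt3b and of these genes are linked was not tested.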

How the data were processed

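Total RNA of the 4 groups was hybridised to GeneAtlas arrays of strip 2, with 1 array per group. The authors deposited log2 values from RMA, per the submitters' processing notes. For RMA, the version and the set of arrays it was run on are not stated there, and neither is a genome build. RMA equalizes the arrays (medians from 4.54 to 4.55), which hides any shift common to most genes, and it compresses the folds of dim genes.

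Of 41345 probe sets, 23521 had 1 gene symbol in the platform annotation, 1814 several and 16010 none. A gene took its probe set with the highest mean, which gave 22180 genes, of which 12042 reached 4.84 on at least 1 array. Differences were called by size, at 2-fold, without a p-value. RefSeq tables of GRCm38.p6 gave promoters, biotypes and 2 renamed symbols. The members, lists and rules were chosen with earlier results of these data known. All listed genes were named. In the lists of further germline, repressor and methylation genes, a gene was named when past 1.5-fold, or as the largest difference where none was. Cell type markers were outside this rule and were named with their values in view. The counts at 2-fold were also computed at 1.5-fold, without the filter, with a filter at 5.65, after cyclic loess and from the mean of all probe sets. The medians of the specification and germline genes were recomputed under these settings except 1.5-fold. Differences of single listed genes were recomputed after cyclic loess and from the mean of all probe sets only. Other results were not recomputed after cyclic loess or from that mean. The software was Python 3.11.15 with numpy 2.4.6, pandas 2.3.3 and matplotlib 3.10.9, and R 4.3.3 with limma 3.58.1.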

Additional observations from a re-analysis of the deposited data

How the results depend on the processing

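Counts of listed genes at 2-fold stayed at 0 in all 6 comparisons without the filter, under the stricter filter, after cyclic loess, with the mean of all probe sets and at 1.5-fold among genes past the filter. With 1.5-fold and no filter together, chosen after seeing the data, the count became 1 between the 2 sea urchin arrays (Dazl). The median of the specification genes against the empty vector was 0.001 with mouse PRDM14, and 0.204 with the stricter filter, which keeps Kit alone. With sea urchin PRDM14 it was -0.054, and 0.055 with no filter. For sea urchin against mouse PRDM14 it was -0.114, and 0.014 without the filter and -0.258 under the stricter one. The median of the germline genes with sea urchin PRDM14 and CBFA2T against the empty vector was 0.183 over 6 genes, and 0.046 over 26 with no filter. For the germline genes with sea urchin PRDM14 against the empty vector, it was 0.081 over 6 genes, and -0.002 over 26 with no filter. Without the filter, 3 of the 12 medians changed sign. These shifts follow from which genes are kept. Under the stricter filter no germline gene was left. Cyclic loess moved single genes by at most 0.02, and the mean of all probe sets moved none, since each had 1. Under cyclic loess 1 of the 180 differences changed sign. It was Tex11 with sea urchin PRDM14 against the empty vector, from -0.008 to 0.003, so the sign counts given for that comparison depend on it. No paired analysis was possible because each group has 1 array. Signal close to background may limit the 21 dim genes, and RMA compresses folds at low signal. No background level was measured for them.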

Other observations

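Of the 10138 dim genes, 16 were past 1.5-fold between the 2 sea urchin arrays, 11 of them higher with CBFA2T and 5 lower. A second germ cell gene, outside the lists used above and chosen after its values were seen, stood beside Dazl there. Sohlh2, a basic helix-loop-helix factor of early spermatogenesis and oogenesis, read 4.77 with sea urchin PRDM14 and CBFA2T, 4.07 with sea urchin PRDM14, 4.24 with mouse PRDM14 and 4.28 with the empty vector. Its difference between the 2 sea urchin arrays was 0.70, and 0.49 on the array with CBFA2T against the empty vector. The other 9 of the 11 were of mixed kinds. They were Gm2035 (1.445), D13Ertd608e (1.273), Zfp972 (0.887), Tcstv3 (0.885), Eif4a3l1 (0.848), 1700013H16Rik (0.773), Olfr310 (0.77), AA623943 (0.673) and Pramel14 (0.667).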
